A study of Mus musculus with 9 samples.

Results

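The uroplakin genes and Krt20 were described in organoids of mouse prostate basal cells grown in 3 media. The genes were taken from a fixed list of 7 symbols, Upk1a, Upk1b, Upk2, Upk3a, Upk3b, Upk3bl and Krt20. All 7 were found among the 49585 genes of the deposited tables, and 6 of them, all but Upk3b, passed the filter on low values that left 15867 genes for testing. The members were chosen by name, with their FPKM in R-spondin1 against basal medium already known from an earlier look at these data, so that comparison is given below as a description without a test.

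Basal cells were flow-sorted from C57BL/6J mouse prostate and grown as organoids for 5 days, with 3 libraries in each of 3 media. The medium BM, present in every group, was advanced DMEM/F12 with B27, N-acetylcysteine, EGF, Noggin (a BMP antagonist), A83-01 (an inhibitor of TGF-β type I receptors) and the kinase inhibitor Y-27632. The group R received BM supplemented with 500 ng/ml of R-spondin1, a secreted ligand that keeps Wnt receptors on the cell surface. The group RD7 received the R medium with dihydrotestosterone (DHT), the potent androgen, at 100 nM. No group had DHT without R-spondin1, and the labels name no engineered allele. Whether the 3 libraries within a group stand for different mice, sorts or cultures is not given in the labels, and the p-values therefore measure only the spread between these samples, which may be technical.

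Uroplakins are the membrane proteins of the asymmetric unit membrane, the rigid plaque that covers the apical face of the umbrella cells lining the bladder. Upk1a and Upk1b are tetraspanins, proteins that cross the membrane several times, and each pairs with a single-pass partner before it leaves the endoplasmic reticulum: Upk1a with Upk2, and Upk1b with Upk3a or Upk3b. Upk3bl is a related uroplakin-like gene, and Krt20 is an intermediate filament keratin found in umbrella cells, intestinal epithelium and Merkel cells. Uroplakins are best known from bladder and ureter, and the prostate shares its origin in the urogenital sinus with part of the lower urinary tract.

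The libraries held between 6505859 and 24141017 reads on genes, and BM 1 was the shallowest. In BM 1, 3 reads correspond to 0.461 CPM (counts scaled to a common library size). The basal identity of the cells was visible in every group: the basal keratin gene Krt5 averaged 2600 FPKM (a read density scaled to gene length and library size) in BM, 3484 in R and 2397 in RD7, and Trp63, the gene of the basal factor p63, averaged 40.7, 44.3 and 26.5 FPKM. Over the 15867 tested genes the median log2 difference of R from BM was 0.02, that of RD7 from R was -0.09, and that of RD7 from BM was -0.07.

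The 7 genes lie at 6 places in the GRCm38 genome with GENCODE M21 gene models. Upk1a lies on chromosome 7 (30603092 to 30612847, minus strand), Upk1b on chromosome 16 (38773184 to 38800328, minus strand) and Upk2 on chromosome 9 (44452715 to 44454976, minus strand). Upk3a lies on chromosome 15 (85017141 to 85022547, plus strand) and Krt20 on chromosome 11 (99428403 to 99438150, minus strand). Upk3b (136038496 to 136046487) and Upk3bl (136054492 to 136064326) are neighbours on the plus strand of chromosome 5, with 8005 bases between them. No annotated gene overlaps any of the 7 (0 genes), so reads of an antisense partner do not enter their values.

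The 250 bases before the annotated start are printed for Upk3a and Krt20, the members with the largest differences in opposite directions between R and BM. The sequences are RefSeq promoters of build GRCm38.p6, written 5′ to 3′ along the gene's strand, and 5 of the 7 genes were found in that table. Capitals mark matches, on either strand, to 7 short motifs. The half-site of many nuclear receptors was searched as AGGTCA, and the half-site of the androgen receptor as AGAACA. The Wnt effectors TCF and LEF were searched by the letters CTTTGA, and the zinc finger factors of the GATA family by AGATAA. The forkhead factors of the FOXA family were searched by TGTTTAC, the Krüppel-like (KLF) factors by CCACCC, and the ETS family by AGGAAG.
Upk3a promoter, chr15:85016891-85017140, plus strand: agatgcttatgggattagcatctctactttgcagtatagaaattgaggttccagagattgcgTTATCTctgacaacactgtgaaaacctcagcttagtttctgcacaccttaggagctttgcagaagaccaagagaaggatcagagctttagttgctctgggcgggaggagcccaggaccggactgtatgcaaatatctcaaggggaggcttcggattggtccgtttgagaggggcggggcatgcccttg
Krt20 promoter, chr11:99438154-99438403, minus strand: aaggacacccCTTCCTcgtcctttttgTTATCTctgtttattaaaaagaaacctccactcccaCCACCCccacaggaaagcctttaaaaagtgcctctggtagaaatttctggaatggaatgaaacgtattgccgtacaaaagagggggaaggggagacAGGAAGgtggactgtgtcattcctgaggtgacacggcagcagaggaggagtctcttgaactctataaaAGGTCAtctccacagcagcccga
The Upk3a window held the GATA letters once, 188 bases before the start, counted to the first base of the match. The Krt20 window held the nuclear receptor half-site at 23, the GATA letters at 223, the KLF letters at 187 and the ETS letters at 240 and 91 bases before the start. Neither window held the TCF/LEF, FOXA or androgen receptor letters. These motifs are short and common: among 32851 promoter windows of the same length, 28.1% held the KLF letters, 29.5% the ETS letters, 14.0% the nuclear receptor half-site, 10.0% the GATA letters, 13.8% the TCF/LEF letters, 16.1% the androgen receptor letters and 3.2% the FOXA letters. A match describes the letters of the window and does not show binding.

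In basal medium 3 of the uroplakin genes were abundant and the rest of the list was close to the limit of detection. Upk1b averaged 109 ± 19.3 FPKM, Upk3a 92.9 ± 26.7 and Upk1a 67.2 ± 14.7 (SD, n = 3), which placed them at ranks 468, 592 and 917 from the top among the 15867 tested genes. The BM libraries of Upk3a overlapped those of both tetraspanins, whereas those of Upk1a and Upk1b did not overlap. Upk3bl averaged 1.91 ± 0.321 FPKM, Upk2 0.930 ± 0.402, Krt20 0.756 ± 0.0559 and Upk3b 0.247 ± 0.165, and the ranges of Upk2 and Krt20 overlapped. With R-spondin1 the order was Upk1b, Upk1a, Krt20, Upk3bl, Upk3a, Upk2 and Upk3b, with no overlap between neighbours in that order. With R-spondin1 and DHT it was Upk1b, Upk1a, Krt20, Upk3a, Upk3bl, Upk2 and Upk3b, where the libraries of Krt20 overlapped those of Upk1a above it and Upk3a below it.

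**Figure D1:**
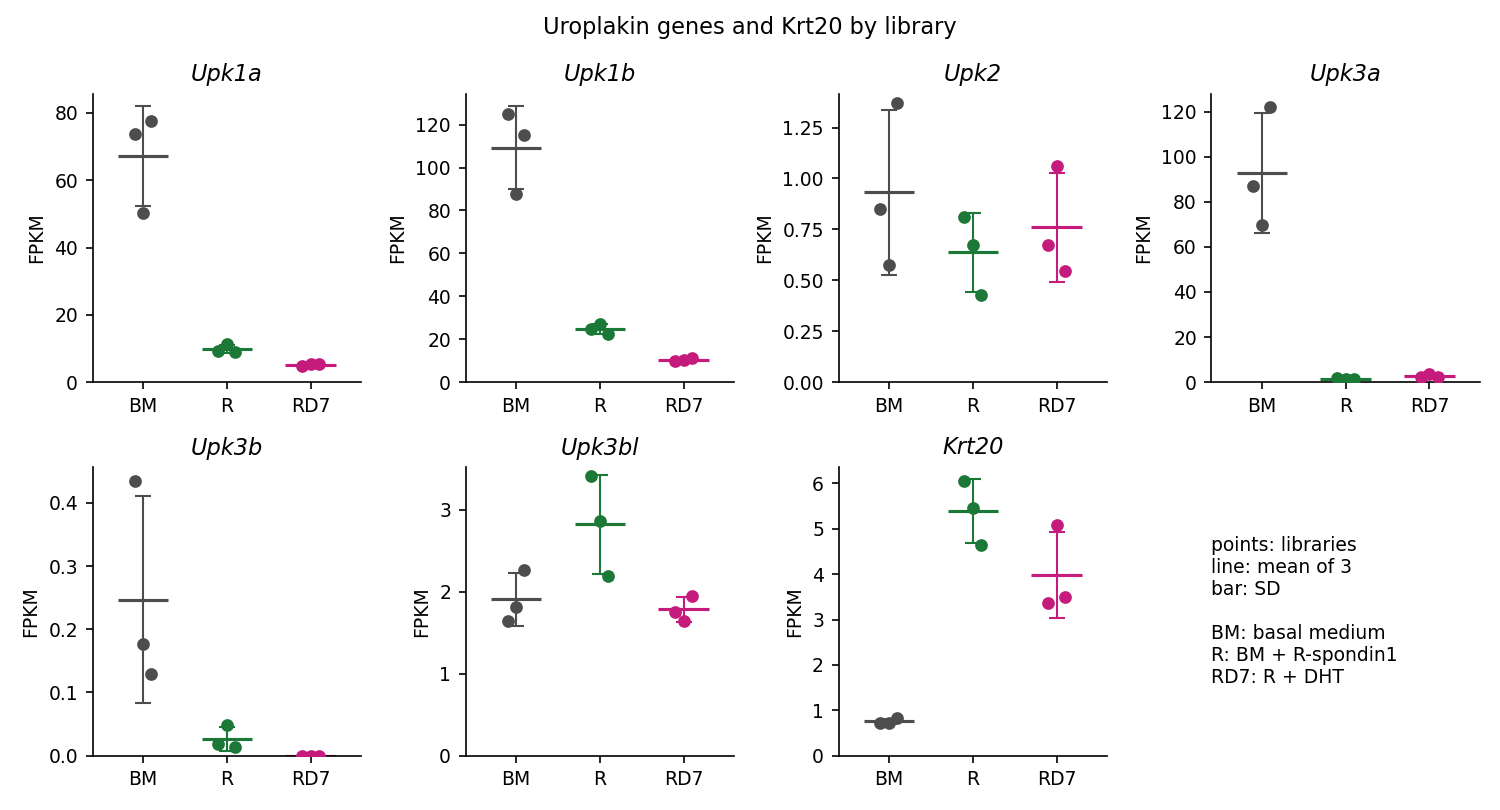
FPKM of each gene (vertical axis, a separate linear scale from 0 in each panel) in the 3 libraries of BM, R and RD7 (horizontal axis), with a line at the mean and a bar for the SD. Upk1a, Upk1b and Upk3a were highest in all 3 BM libraries, Krt20 was lowest there, and the panels of Upk2 and Upk3b reach only 1.37 and 0.435 FPKM.

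The tetraspanin gene Upk1a read 73.7, 50.3 and 77.5 FPKM in the BM libraries, 9.35, 11.3 and 8.97 in the R libraries and 4.68, 5.42 and 5.42 in the RD7 libraries. The 3 groups formed 3 steps without overlap, highest in BM and lowest in RD7. R was 6.79-fold lower than BM (log2 difference -2.69 ± 0.18, SE). RD7 was a further 1.91-fold lower than R (log2 difference -0.87 ± 0.18, limma adjusted p = 0.0051), and lower than BM by 13.0-fold (-3.55 ± 0.18, limma adjusted p = 3.3e-07), which left 7.70% of the BM mean. Folds here are ratios of mean FPKM, and log2 differences are on the log2(FPKM + 0.5) scale, where the added 0.5 understates the change of genes with low values.

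The other tetraspanin gene, Upk1b, gave 125, 87.6 and 115 FPKM in BM, 24.7, 26.9 and 22.3 in R and 9.79, 10.1 and 11.2 in RD7. It formed the same 3 steps, again without overlap. R was 4.43-fold lower than BM (log2 difference -2.11 ± 0.15). Upk1b fell again with DHT by 2.37-fold (log2 difference -1.21 ± 0.15, limma adjusted p = 2.4e-04), and RD7 stood at 9.50% of BM (log2 difference -3.32 ± 0.15, limma adjusted p = 1.9e-07).

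Upk3a, the single-pass partner of Upk1b, gave 87.1, 69.6 and 122 FPKM in BM, 1.87, 1.28 and 1.54 in R and 2.48, 3.79 and 2.46 in RD7. Its lowest group was R, not RD7, and none of the 3 groups overlapped. R was 59.4-fold lower than BM (log2 difference -5.47 ± 0.23), and no other tested gene had a lower log2 difference in that comparison (0 genes). Upk3a had been named among the genes that fell furthest in the earlier look at these data, so its rank is only a description. The difference rested on 5133 reads in BM against 103 in R, so counting error was small beside it. Upk3a rose from R to RD7 by 1.86-fold (log2 difference 0.71 ± 0.23, limma adjusted p = 0.040), against the direction of both tetraspanins. That call was lost in 10 of 17 alternative settings (limma adjusted p up to 0.144), and among them it was lost without R 1 (0.050), R 2 (0.131), R 3 (0.097), RD7 2 (0.144), RD7 3 (0.061) or BM 1 (0.053). RD7 remained far below BM (log2 difference -4.76 ± 0.23, limma adjusted p = 2.5e-07), at 3.13% of the BM mean.

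Upk2, the partner of Upk1a, was barely detected: 0.852, 0.574 and 1.37 FPKM in BM, 0.810, 0.675 and 0.426 in R and 0.671, 1.06 and 0.547 in RD7. The libraries of all 3 groups overlapped. These values came from 6 to 29 reads per library. R differed from BM by -0.31 ± 0.23 on the log2 scale. RD7 differed from R by 0.14 ± 0.23 (limma adjusted p = 0.672) and from BM by -0.17 ± 0.23 (limma adjusted p = 0.571). A change of Upk2 within this spread was not detectable at this depth.

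Upk3b, the alternative partner of Upk1b, was covered by 10, 15 and 9 reads in the BM libraries, by 1, 4 and 1 in the R libraries and by 0 in each RD7 library. In FPKM these were 0.435, 0.176 and 0.130 in BM and 0.0177, 0.0487 and 0.0131 in R. The 3 groups did not overlap, but the gene was under the filter and was not tested. Over the summed libraries, the share of reads on Upk3b was 6.86 times higher in BM than in R (34 against 6 reads), given as a description. The BM libraries were uneven, at 1.54 CPM in BM 1, 0.621 in BM 2 and 0.459 in BM 3. With 3 reads over the RD7 group as the floor, the share of reads in BM was 12.2 times that floor, and in R 1.77 times. The counting error of the 34 and 6 reads is not included, so neither ratio is a lower limit.

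The uroplakin-like gene Upk3bl, next to Upk3b on chromosome 5, showed another pattern, with 1.65, 1.81 and 2.27 FPKM in BM, 3.41, 2.87 and 2.20 in R and 1.76, 1.65 and 1.95 in RD7. The lowest R library overlapped the BM libraries, and all R libraries lay above all RD7 libraries. R against BM differed by 0.46 ± 0.18 on the log2 scale. Upk3bl fell from R to RD7 by 1.58-fold (log2 difference -0.53 ± 0.18, limma adjusted p = 0.045). This call was lost in 9 of 17 alternative settings, with limma adjusted p up to 0.166 without R 1, 0.120 without R 2, 0.086 without RD7 1, 0.123 without RD7 2 and 0.074 without RD7 3. RD7 against BM gave -0.07 ± 0.18 (limma adjusted p = 0.757).

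Krt20 went the other way from the abundant uroplakins. It gave 0.718, 0.731 and 0.820 FPKM in BM, 6.05, 5.47 and 4.65 in R and 3.36, 5.08 and 3.50 in RD7. Every R and RD7 library lay above every BM library, and R and RD7 overlapped. R was 7.12-fold higher than BM (log2 difference 2.22 ± 0.18). RD7 was 5.26-fold higher than BM in FPKM (log2 difference 1.82 ± 0.18, limma adjusted p = 3.6e-05), and RD7 against R did not pass the test (-0.41 ± 0.18, limma adjusted p = 0.106). Without RD7 2, the highest RD7 library, it passed (-0.58, limma adjusted p = 0.036). The mean of Krt20 in R, 5.39 FPKM, put it at rank 8228 of the tested genes, against 13318 in BM.

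Counted over the list, the groups R and BM did not overlap for 5 of the 7 genes, 4 lower in R and Krt20 higher. Among all tested genes 30.3% did not overlap between R and BM (14.4% lower, 15.9% higher in R), and 10.0% passed the limma test (5.64% lower, 4.39% higher). Nothing is read from this count, since the list was drawn up with that comparison known. In RD7 against R, 4 of the 6 tested genes passed (Upk1a, Upk1b and Upk3bl lower, Upk3a higher), where 31.1% of all tested genes passed (17.7% lower, 13.4% higher), and only Upk1a and Upk1b did so in all 17 alternative settings. In RD7 against BM, 4 of the 6 passed (Upk1a, Upk1b and Upk3a lower, Krt20 higher), where 47.0% of all tested genes passed (25.4% lower, 21.6% higher), and all 4 calls were kept in the 17 settings. The tested comparisons share the R or the BM libraries with the comparison behind the list, so the 3 are not independent. In bulk libraries, fewer cells that express a gene and less of its RNA per cell cannot be told apart.

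**Figure D2:**
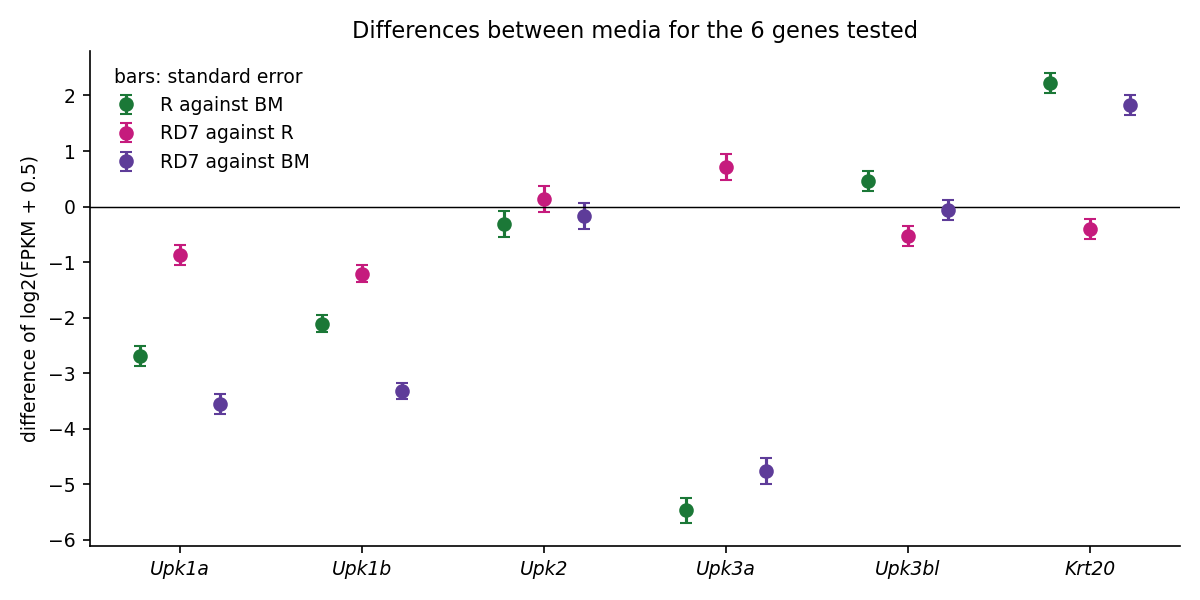
Difference of log2(FPKM + 0.5) between media (vertical axis) for the 6 tested genes (horizontal axis), with 1 point for each pair of media and bars for the standard error. The DHT step (RD7 against R) lies at -0.87 for Upk1a and -1.21 for Upk1b but at 0.71 for Upk3a, and Krt20 is above 0 in both comparisons with BM.

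The plaque genes did not change in proportion. The 6 uroplakin genes together gave 272 ± 56.0 FPKM in BM, 39.6 ± 3.87 in R and 21.0 ± 1.41 in RD7 (SD, n = 3). Upk3a supplied 30.2%, 33.2% and 38.3% of that sum in the BM libraries, 4.65%, 2.98% and 4.36% in the R libraries and 12.8%, 17.2% and 11.4% in the RD7 libraries. Upk1a supplied between 23.3% and 26.3% in every library, so its share of the uroplakin sum was nearly the same in all 3 media.

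Ratios between partners were taken within each library, which removes the scaling between libraries. The ratio of Upk3a to Upk1b was 0.699, 0.795 and 1.06 in BM, 0.0756, 0.0478 and 0.0694 in R and 0.253, 0.376 and 0.219 in RD7. All RD7 libraries lay between the R and the BM libraries. The difference between RD7 and R was 2.13 on the log2 scale, with an exact two-sided permutation p = 0.10, the smallest that 3 libraries against 3 can give. The ratio of Upk2 to Upk1a averaged 0.0135 ± 0.00354 in BM, 0.0646 ± 0.0200 in R and 0.147 ± 0.0478 in RD7, so Upk2 was low against its partner in every medium. RD7 exceeded R by 1.18 on the log2 scale without overlap (exact permutation p = 0.10). The ratio of the tetraspanins, Upk1a to Upk1b, was 0.613 ± 0.0529 in BM, 0.401 ± 0.0222 in R and 0.499 ± 0.0338 in RD7, and the step from R to RD7 was 0.32 (exact permutation p = 0.10). The step of Upk3a to Upk1b was the largest of these, but steps were not tested against each other.

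**Figure D3:**
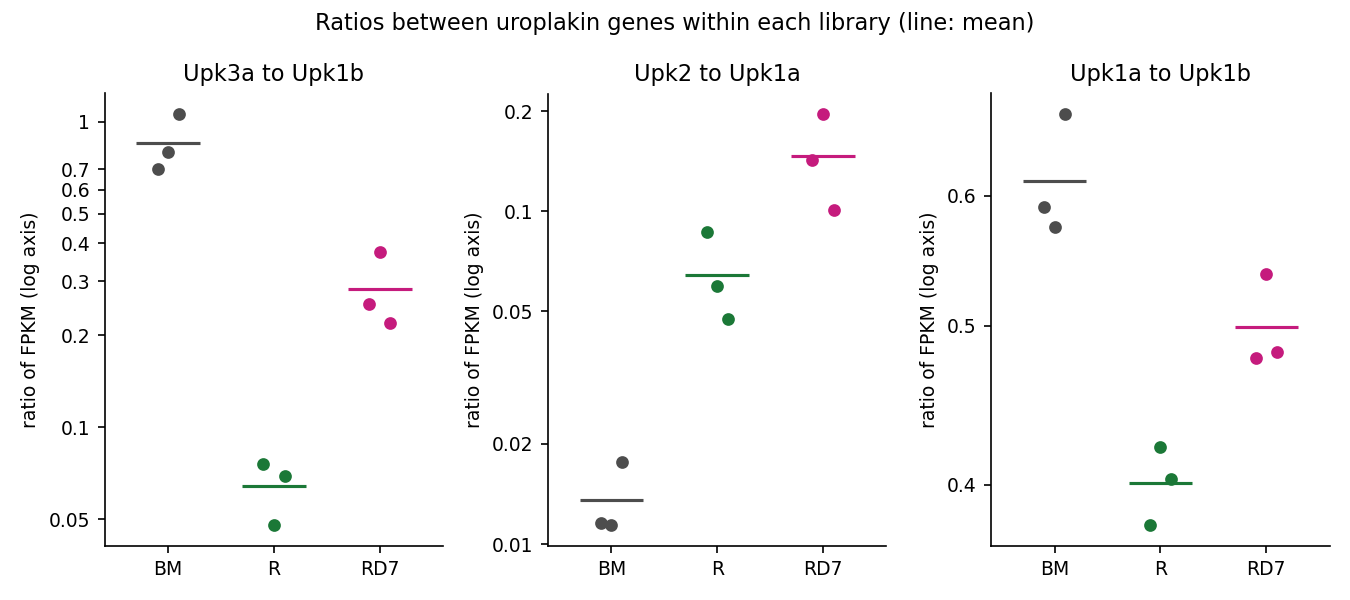
Ratio of FPKM between uroplakin genes within each library (vertical axis, logarithmic) for Upk3a to Upk1b, Upk2 to Upk1a and Upk1a to Upk1b, in the 3 libraries of BM, R and RD7 (horizontal axis), with a line at the mean. The ratio of Upk3a to Upk1b is lowest in R, at 0.0478 to 0.0756, and between 0.219 and 0.376 in RD7.

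The list of uroplakin partners and proteins of apical vesicle traffic, which carry uroplakins to the cell surface in umbrella cells, was tested for all 9 of its genes. This list and the gene lists below were chosen with earlier results of these data known. Their p-values are therefore not independent of that earlier look. In R against BM 1 of the 9 was lower and none higher (median log2 difference -0.15, against 0.02 over all tested genes, of which 10.0% were called). Nothing is read from the counts of this or the following lists where they lie near the share over all tested genes. The called gene was Rab27b, a small GTPase of fusiform vesicles, at 6.01 ± 0.606 FPKM in BM against 3.60 ± 0.0598 FPKM in R (log2 difference -0.66 ± 0.15, limma adjusted p = 0.017), a call lost with the replicate block (0.058) and without BM 2 (0.061), R 1 (0.072), R 2 (0.075) or R 3 (0.060). With DHT, RD7 against R had 1 gene higher and 1 lower (median -0.07, against -0.09 over all genes, of which 31.1% were called). Mal, a raft protein of apical transport, fell from 10.3 ± 0.610 to 5.88 ± 1.59 FPKM (log2 difference -0.79 ± 0.18, limma adjusted p = 0.0094). Vamp8, a vesicle fusion protein, rose from 16.0 ± 4.93 to 43.8 ± 9.42 FPKM (1.45 ± 0.31, limma adjusted p = 0.0063). In RD7 against BM 1 was higher and 3 lower (median -0.32, against -0.07, with 47.0% of all tested genes called). The lower ones were Mal, Rab27b and Snx31. The difference of Rab27b there was -0.74 ± 0.15 (limma adjusted p = 0.0035), and with the length trend removed it was -0.34 (0.050). Snx31, a sorting nexin that binds uroplakins, averaged 0.239 FPKM in BM but 0.00635 FPKM in RD7 (limma adjusted p = 0.020), a call lost with no filter (0.052) and without BM 1 (0.070), RD7 2 (0.058) or RD7 3 (0.058).

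Among 13 transcription factor genes of urothelium, Pparg followed the tetraspanins. PPARγ, its product, is a nuclear receptor that drives differentiation of urothelium. Pparg gave 15.0, 13.9 and 16.7 FPKM in BM, 5.79, 6.28 and 5.71 in R and 2.18, 2.25 and 2.83 in RD7, with no overlap between groups. It fell with R-spondin1 (log2 difference -1.29 ± 0.14, limma adjusted p = 2.4e-04) and again with DHT (-1.14 ± 0.14, limma adjusted p = 2.1e-04), and both calls were kept in all alternative settings. The Upk3a window printed above holds no nuclear receptor half-site and that of Krt20 holds 1, which says nothing about where the receptor binds.

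No other factor of the list was called lower at both steps. In R against BM 3 of the 13 were higher and 1, Pparg, lower (median log2 difference 0.10, against 0.02 over all genes, of which 10.0% were called). Tbx2, a T-box repressor, rose from 9.38 ± 0.277 to 23.9 ± 1.51 FPKM (1.31 ± 0.14, limma adjusted p = 2.1e-04). Grhl3, a factor of umbrella cell and epidermal barrier formation, rose from 8.27 ± 0.782 to 20.3 ± 1.49 FPKM (1.25 ± 0.14, limma adjusted p = 2.3e-04). Ovol1, a zinc finger factor of epithelial differentiation, rose from 6.15 ± 0.241 to 12.9 ± 0.514 FPKM (1.01 ± 0.13, limma adjusted p = 7.4e-04). Grhl3 and Ovol1 had their highest means in R, the medium with the highest mean of Krt20 and the lowest of Upk3a.

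With DHT on top, 1 of the 13 factors was higher and 4 lower (median -0.27, against -0.09). Over all tested genes 31.1% were called in that comparison (13.4% higher, 17.7% lower). Ovol1 fell to 6.95 ± 0.848 FPKM (-0.85 ± 0.13, limma adjusted p = 9.0e-04) and Gata3, a zinc finger factor of urothelial and luminal epithelium, fell from 91.5 ± 7.50 to 54.6 ± 1.64 FPKM (-0.74 ± 0.14, limma adjusted p = 0.0030). Grhl3 fell to 15.0 ± 1.81 FPKM (-0.43 ± 0.14, limma adjusted p = 0.037). That call was lost in several settings, among them voom (0.084) and without R 2 (0.137). Grhl3 in RD7 stayed above BM (0.82 ± 0.14, limma adjusted p = 0.0014). Ehf, an ETS factor of epithelia, rose from 63.5 ± 5.49 to 97.7 ± 14.0 FPKM (0.61 ± 0.15, limma adjusted p = 0.014), a call lost without R 1 (0.057) or R 2 (0.052). In RD7 against BM 4 were higher and 3 lower (median 0.08, against -0.07, with 47.0% of all tested genes called). Klf5, a zinc finger factor of urothelial and basal cells, was among the higher ones at 203 ± 20.2 against 322 ± 39.3 FPKM (0.66 ± 0.14, limma adjusted p = 0.0052). The lower ones were Pparg (log2 difference -2.43 ± 0.14, limma adjusted p = 9.7e-07), Foxa1 and Irf1. Foxa1, a forkhead factor of luminal and urothelial cells, averaged 171, 152 and 118 FPKM in BM, R and RD7 (RD7 against BM -0.54 ± 0.16, limma adjusted p = 0.023). Its call was lost with only the 2 groups compared (0.053) and without BM 1 (0.065), BM 2 (0.084), RD7 2 (0.075) or RD7 3 (0.083). Irf1, an interferon regulatory factor, averaged 18.2, 16.4 and 14.0 FPKM (-0.36 ± 0.12, limma adjusted p = 0.036), and its call was lost in 13 of 17 settings (up to 0.144), among them without any 1 of the BM or RD7 libraries. Rxra (29.1, 26.6 and 20.3 FPKM) and Tbx3 (30.1, 19.8 and 16.3 FPKM) passed in none of the 3 comparisons.

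**Figure D4:**
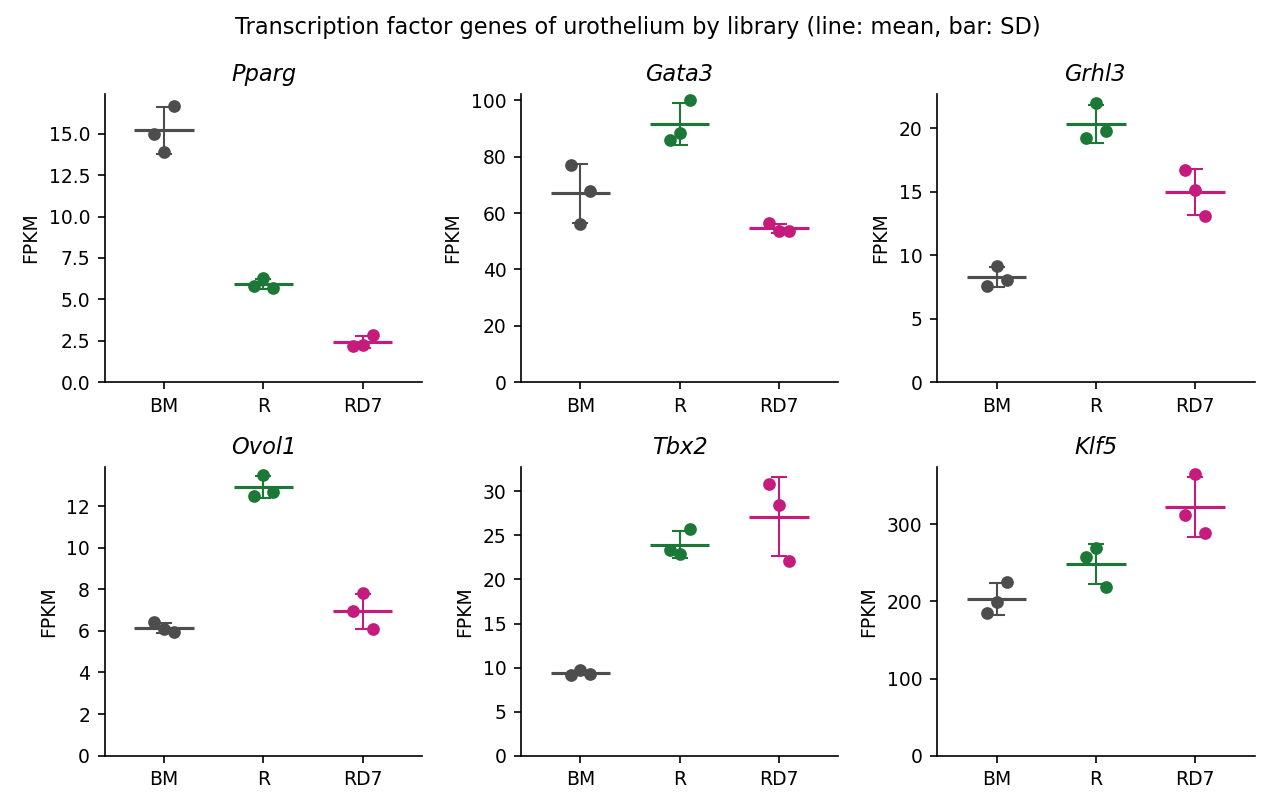
FPKM of 6 of the 13 urothelial transcription factor genes (vertical axis, a separate linear scale from 0 in each panel) in the 3 libraries of BM, R and RD7 (horizontal axis), with a line at the mean and a bar for the SD. Pparg steps down from 15.2 to 5.93 and 2.42 FPKM, whereas Grhl3 and Ovol1 are highest in R, at 20.3 and 12.9 FPKM.

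As a list, the PPAR target genes did not follow Pparg through both steps. Of 14 listed, 10 were tested. In R against BM 4 were lower and none higher (median -0.42, against 0.02 over all genes, of which 10.0% were called). Gpd1, a glycerol phosphate dehydrogenase, fell from 9.70 ± 1.32 to 2.02 ± 0.0995 FPKM (-2.01 ± 0.14, limma adjusted p = 1.1e-05). Angptl4, a secreted inhibitor of lipoprotein lipase, fell from 2.47 ± 0.160 to 0.901 ± 0.204 (-1.09 ± 0.17, limma adjusted p = 0.0023). Cpt1a, which moves fatty acids into mitochondria, fell from 26.2 ± 7.36 to 11.8 ± 1.51 (-1.09 ± 0.22, limma adjusted p = 0.0096, and 0.051 without R 2). With DHT 4 were higher and 1 lower (median 0.19, against -0.09, with 31.1% of all tested genes called). Gpd1 rose to 31.8 ± 2.74 FPKM (3.68 ± 0.14, limma adjusted p = 6.9e-08) and the lipid droplet gene Plin5 from 0.202 ± 0.0825 to 2.11 ± 0.0704 (1.90 ± 0.15, limma adjusted p = 7.5e-06), while Pparg itself fell. The lower gene was Plin2, another lipid droplet gene, from 14.1 ± 1.86 to 8.85 ± 2.44 FPKM (-0.67 ± 0.18, limma adjusted p = 0.021). Its call was lost in 4 settings (up to 0.084). Plin2 averaged 18.0 ± 1.12 FPKM in BM, so it stepped down through the 3 media without overlap, though R against BM was not called. RD7 against BM had 3 higher and 3 lower (median 0.18, against -0.07, with 47.0% of all tested genes called). The lower ones were Plin2 (-1.01 ± 0.18, limma adjusted p = 0.0022), Angptl4 and Cpt1a. The classic adipose targets were near 0, with Cd36 listed at 0 in all 9 libraries.

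Other genes of the luminal urothelial surface and its junctions split in direction. Of 16 listed, 15 were tested, and in R against BM 2 were higher and 7 lower (median -0.50, against 0.02 over all genes). Over all tested genes 10.0% were called there. The claudin gene Cldn8, for a tight junction protein, fell from 14.1 ± 1.16 to 4.64 ± 0.838 FPKM (-1.52 ± 0.23, limma adjusted p = 0.0018). The membrane mucin genes Muc20 and Muc1 fell from 2.99 to 0.803 FPKM (-1.42 ± 0.17, limma adjusted p = 3.7e-04) and from 1.61 to 0.312 FPKM (-1.37 ± 0.15, limma adjusted p = 1.7e-04). The 2 higher genes differed by more than any of the lower ones. Psca, a surface protein of prostate and bladder epithelium, rose from 29.2 ± 11.7 to 249 ± 50.3 FPKM (3.12 ± 0.29, limma adjusted p = 6.7e-05), and Krt13, the keratin of intermediate urothelial cells, rose from 12.2 ± 3.29 to 72.7 ± 4.19 FPKM (2.56 ± 0.18, limma adjusted p = 1.2e-05).

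In RD7 against R 7 of the 15 were higher and 3 lower (median 0.32, against -0.09, with 31.1% of all tested genes called). Cldn3 rose from 110.4 ± 12.4 to 399 ± 61.4 FPKM (1.84 ± 0.19, limma adjusted p = 6.3e-05), and the simple keratin gene Krt7 from 99.4 ± 8.49 to 263 ± 40.3 FPKM (1.39 ± 0.15, limma adjusted p = 8.4e-05). Krt13 fell to 24.8 ± 3.11 FPKM (-1.54 ± 0.18, limma adjusted p = 1.5e-04) and Muc20 to 0.256 ± 0.103 FPKM (-0.79 ± 0.17, limma adjusted p = 0.0062). Muc20 thus stepped down through the 3 media as Upk1a and Upk1b did. The other mucin gene named above, Muc1, instead rose with DHT, from 0.312 to 1.06 FPKM (0.94 ± 0.15, limma adjusted p = 8.8e-04). RD7 against BM had 6 higher and 5 lower (median 0.27, against -0.07, with 47.0% of all tested genes called).

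The fall of Upk1a and Upk1b was set beside the other tetraspanin genes, of which 25 of 29 were tested. In R against BM 2 were higher and 3 lower, with a median of 0.02, the same as over all genes, of which 10.0% were called. Tspan33 fell from 4.93 ± 0.431 to 1.27 ± 0.0667 FPKM (-1.61 ± 0.14, limma adjusted p = 4.3e-05) and Tspan8 from 88.3 ± 34.8 to 30.9 ± 3.03 FPKM (-1.43 ± 0.23, limma adjusted p = 0.0030). Unlike the uroplakin tetraspanins, Tspan33 returned with DHT, to 4.57 ± 0.428 FPKM (1.51 ± 0.14, limma adjusted p = 2.6e-05). In RD7 against R 5 were higher and 3 lower (median 0.21, against -0.09, with 31.1% of all tested genes called). Tspan1 rose from 243 ± 22.6 to 625 ± 87.3 FPKM (1.35 ± 0.19, limma adjusted p = 4.4e-04). Cd53, a tetraspanin of leukocytes, averaged 1.85, 0.697 and 0.0822 FPKM in BM, R and RD7 and fell at both steps (limma adjusted p = 0.0063 and 0.0020). RD7 against BM had 5 higher and 4 lower (median 0.19, against -0.07, with 47.0% of all tested genes called).

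Neighbouring genes were read for each locus. Krt20 lies in the type I keratin cluster between Krt12, 6144 bases away, and Krt23, 39824 bases away. Krt12, the keratin of corneal epithelium, gave 0.415, 0.246 and 0.413 FPKM in BM, 3.18, 3.02 and 2.42 in R and 0.302, 0.678 and 0.639 in RD7. Krt23 gave 14.0, 12.4 and 18.0 FPKM in BM, 57.1, 61.4 and 49.4 in R and 16.1, 18.3 and 19.2 in RD7. All R libraries of both genes lay above all others, as did the Krt20 libraries of R over BM. Both rose with R-spondin1 (Krt12 1.97 ± 0.19, limma adjusted p = 7.1e-05, and Krt23 1.89 ± 0.16, limma adjusted p = 3.5e-05). Both fell with DHT (Krt12 -1.71 ± 0.19, limma adjusted p = 8.0e-05, and Krt23 -1.62 ± 0.16, limma adjusted p = 4.2e-05), where Krt20 stayed 5.26-fold above BM. Whether the DHT step of Krt20 differed from theirs was not tested.

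**Figure D5:**
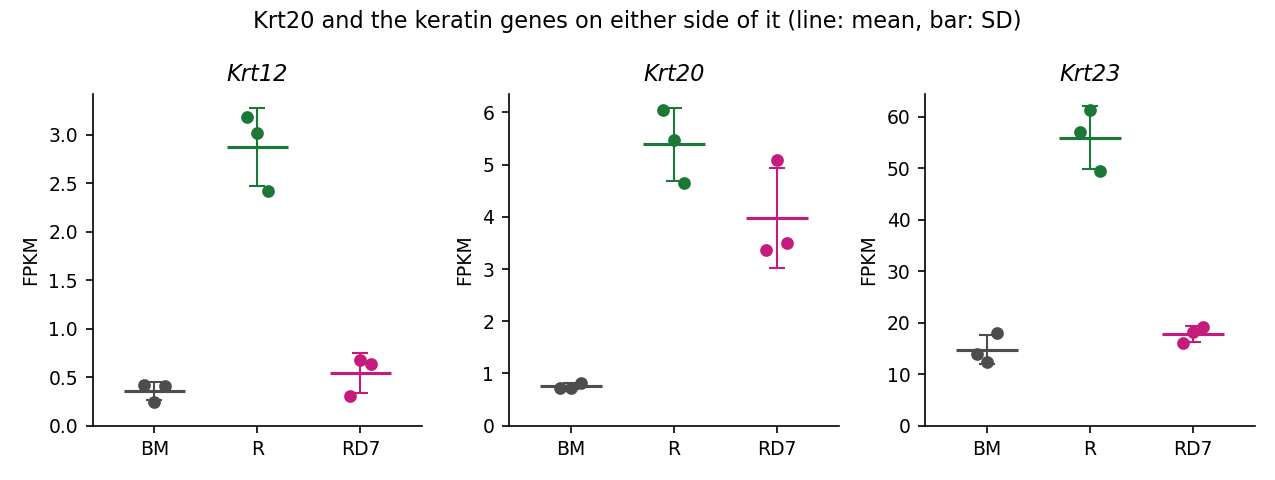
FPKM of Krt12, Krt20 and Krt23, neighbours on chromosome 11 (vertical axis, a separate linear scale from 0 in each panel), in the 3 libraries of BM, R and RD7 (horizontal axis), with a line at the mean and a bar for the SD. In RD7 Krt12 and Krt23 are near their BM levels, at 0.540 and 17.9 FPKM, while Krt20 is at 3.98 FPKM against 0.756 in BM.

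Between R and BM, the nearest neighbours of Upk3a and Upk1b differed by less than these genes did. Fam118a, 6401 bases from Upk3a, averaged 22.2 FPKM without and 11.6 FPKM with R-spondin1 (log2 difference -0.90 ± 0.16, limma adjusted p = 0.0053), against -5.47 for Upk3a. B4galt4, a galactosyltransferase gene 4135 bases from Upk1b, averaged 17.1 FPKM without and 10.1 FPKM with R-spondin1 (-0.73 ± 0.12, limma adjusted p = 0.0035), and did not pass the test in RD7 against R (0.01 ± 0.12, limma adjusted p = 0.956). Cox6b1, a respiratory chain gene 4014 bases from Upk1a, averaged 30.4 ± 9.93 FPKM in R and 101 ± 40.1 in RD7 (1.69 ± 0.37, limma adjusted p = 0.0068), opposite in direction to Upk1a. Its RD7 libraries were uneven, at 83.2, 147 and 72.8 FPKM.

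The genes whose course over the 9 libraries was most like each member were ranked by Pearson r of log2(FPKM + 0.5), as a description that rests on 3 groups. For Upk3a they were Hpn, the gene of the membrane protease hepsin (r = 0.991), with 27.6, 8.94 and 10.6 FPKM in BM, R and RD7, Angpt1, a ligand of the endothelial receptor Tie2 (r = 0.989), with 5.83, 0.451 and 0.577 FPKM, and Gm15270 (r = 0.986). For Upk1b they were the gasdermin genes Gsdmc4 (r = 0.995) and Gsdmc3 (r = 0.994) and the chaperone gene Clu (r = 0.991). Gsdmc3 averaged 96.4, 3.22 and 0.245 FPKM, a lower end than that of Upk1b. Gasdermin C genes are near-identical copies of each other, so their values may share or split reads. For Upk1a they were Acaa1b, a peroxisomal thiolase (r = 0.995), Vim (r = 0.991) and Gm5082 (r = 0.991), of which only Acaa1b reached 3 FPKM in BM, at 3.69.
For Krt20 they were Gm15691 (r = 0.996), Nccrp1 (r = 0.992) and the chitinase gene Chit1 (r = 0.991), and Nccrp1 averaged 0.845, 15.7 and 11.1 FPKM. Upk2 had no gene above r = 0.911 (Dapl1), and Upk3bl none above 0.968 (Snupn).

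Several of the 7 genes are also markers of other epithelia, so those cell types were read directly. Of 6 mesothelial markers, Msln was the only one to reach 1 FPKM in any group. It gave 139, 179 and 139.9 FPKM in BM, 41.8, 45.3 and 42.2 in R and 36.2, 35.9 and 35.6 in RD7, and fell from BM to R (-1.80 ± 0.13, limma adjusted p = 1.2e-05). The summed mesothelial list ranged from 139.5 to 179 FPKM in BM, 41.8 to 45.3 in R and 35.6 to 36.3 in RD7, and the defining factor gene Wt1 was listed at 0 in all BM and RD7 libraries. Calb2 (0.529 FPKM) and Gpm6a (0.287 FPKM) were above 0 only in BM 1, the library with the highest Upk3b, at 0.435 FPKM. Lrrn4 and Muc16 were listed at 0 in BM 1.
Of 6 intestinal markers, Vil1, the gene of a microvillus actin protein, gave 9.31, 5.21 and 5.44 FPKM in BM, 0.176, 0.109 and 0.104 in R and 0.456, 0.103 and 0.417 in RD7 (R against BM -3.46 ± 0.24, limma adjusted p = 1.1e-05). The summed intestinal list ranged from 7.10 to 11.3 FPKM in BM, 0.830 to 1.06 in R and 2.88 to 2.97 in RD7. The highest gene of the list was Vil1 in BM but Lgals4 in R and RD7. Lgals4 rose from 0.482 FPKM in R to 2.35 in RD7 (1.54 ± 0.18, limma adjusted p = 1.1e-04). Cdh17 fell from 0.789 FPKM in BM to 0.0856 in R (-1.14 ± 0.11, limma adjusted p = 6.4e-05) and was at 0.120 in RD7. The intestinal factor gene Cdx1 was listed at 0 in all BM and RD7 libraries and Cdx2 in all R and RD7 libraries.
The 8 Merkel and neuroendocrine markers summed to 0.832 to 1.25 FPKM in BM, 1.41 to 2.02 in R and 0.622 to 0.934 in RD7, with Atoh1, the defining factor of Merkel cells, listed at 0 in all R and RD7 libraries. Within that list Isl1 rose from 0.261 to 1.18 FPKM with R-spondin1 (1.16 ± 0.17, limma adjusted p = 0.0018) and fell to 0.169 with DHT (-1.35 ± 0.17, limma adjusted p = 2.6e-04). Piezo2, the only other tested gene of the list, went the opposite way, from 0.332 to 0.0279 FPKM with R-spondin1 (-0.65 ± 0.12, limma adjusted p = 0.0059) and to 0.622 with DHT (1.09 ± 0.12, limma adjusted p = 8.5e-05). The 6 seminal vesicle markers summed to at most 1.07 FPKM in any library, the 7 mesenchymal markers to at most 1.18 and the 7 immune and endothelial markers to at most 3.54. The part of Msln, Calb2, Gpm6a, Vil1, Lgals4, Cdh17, Isl1 or Piezo2 expressing cells in the uroplakin and Krt20 values was not tested.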

How the data were processed

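RNA of 9 libraries was made into full-length polyadenylated cDNA (SMART-Seq) and sequenced without strand or molecular barcodes, per the labels' protocols. Named in the submitters' processing notes, without roles, are STAR 2.6.1a, featureCounts, edgeR 3.24.1, CASAVA 1.9 and the build GRCm38, and their settings and annotation are not given in the sources used here. The deposited values are FPKM per gene, 1 table per library, made by the authors. Symbols came from GENCODE M21 (99.5% of 49585 Ensembl IDs matched, 259 unmatched). Because FPKM steps are whole reads divided by length and total, reads were read back (99.988% to 99.994% of each library, tolerance 0.01 reads); 3842 of the 26813 genes above 0, Upk1b and Upk3a among them, needed a fitted length instead of the GENCODE one, so their FPKM rests on the length the authors used. Read-back counts served the filter, depth and the voom alternative.

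The filter asked for 0.5 CPM or more in 3 or more libraries. The genes that passed were tested with limma 3.58.1 (R 4.3.3) on log2(FPKM + 0.5), with trend and robust settings, 1 mean per group over all 9 libraries, two-sided, with Benjamini-Hochberg adjustment over the 15867 genes and a threshold of 0.05. The method was also run on simulated counts with the same spread for every gene and no length trend. Removing a length trend changes calls in the real data, so no conclusion is drawn from that run. Ratios of 3 against 3 libraries used exact permutation. The floor for Upk3b covers the counting error of the RD7 reads only, and depths cover counting error only. RefSeq promoters were searched on both strands.

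The members and the gene lists were chosen with earlier results of these data known, and the alternatives were fixed with them. Genes named are the 7 members, up to 3 called genes per direction of each list and comparison with the largest log2 difference, the 3 genes most like each tested member and the nearest protein-coding neighbours. The text gives a part of them. The 17 alternatives covered pseudocounts, filter, scaling, voom, a length trend, a replicate block, the 2 groups alone and each library left out.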

Additional observations from a re-analysis of the deposited data

How the results depend on the processing

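The calls of Upk1a and Upk1b in RD7 against R, and of Upk1a, Upk1b, Upk3a and Krt20 in RD7 against BM, were kept in all 17 settings tried. The number of the 6 genes called in RD7 against R was 4, and it was 2 with no filter, 2 with limma-voom, 2 with the replicate block and between 2 and 4 when 1 library was left out (2 without R 1, R 2 or RD7 3). In RD7 against BM it was 4, 5 with no filter, 6 with the length trend removed and 4 to 4 with 1 library left out, and the number without overlap between R and BM was 5 to 6 with 1 library left out. Leaving out 1 library gave 889 to 3340 calls over all genes in R against BM (1591 with all), with 3340 without BM 3, 1038 without BM 1, 889 without R 1 and 901 without R 2. It gave 3138 to 5729 in RD7 against R (4937 with all; 3163 without R 2, 3157 without R 3, 3138 without RD7 2) and 4686 to 8444 in RD7 against BM (7455 with all, 4686 without RD7 2). The share of calls that were higher was 43.0% in RD7 against R, 54.0% with median-of-ratios scaling and 53.2% with the length trend removed; without BM 3 it was 62.4% in R against BM, against 43.7%.

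Upk3a in RD7 against R ranged from 0.48 to 0.99 (limma adjusted p 0.016 to 0.144) and missed the threshold with pseudocount 1 (0.059), no filter (0.082), voom (0.079) and the replicate block (0.077). Upk3bl in that comparison ranged from -0.72 to -0.40 and missed it with median-of-ratios scaling (0.081), no filter (0.078), voom (0.139) and the block (0.092). Krt20 passed there once the length trend was taken out (-0.48, limma adjusted p = 0.041) and without RD7 2 (-0.58, 0.036). With the length trend removed, Upk2 (-0.62, 0.014) and Upk3bl (-0.49, 0.024) passed in RD7 against BM. Upk2 changed sign in RD7 against R with the length trend removed (-0.09) and without RD7 2 (-0.02), and in RD7 against BM without BM 3 (0.04, with -0.35 to 0.04 over the libraries left out), as did Upk3bl (0.03, with -0.15 to 0.03). In R against BM, Upk3a was -5.89 with voom, and Krt20 was 2.67 with pseudocount 0.1, 1.86 with pseudocount 1, 2.76 with voom and 2.03 with the length trend removed. The cause of these shifts was not tested.

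Same-numbered libraries did not deviate together: correlations over the 9 pairs ran from -0.52 to 0.27, and 0 of 9 libraries correlated best with their own numbers, so the replicate numbers were not taken to pair libraries. Depth limited Upk2, with 6 to 29 reads per library, and Upk3b most. The 3 libraries per group may not be separate animals.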
